A study of Mus musculus with 18 samples.

Results

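The passage from double-positive (DP) to CD4 single-positive (CD4 SP) thymocytes was followed in mice whose thymic epithelium lacks Wls, on 6 of the 18 arrays of the series. Members were taken by their labels alone: 3 arrays of sorted DP thymocytes and 3 of sorted CD4 SP thymocytes, both from the conditional knock-out (cKO). In the cKO, FoxN1-Cre deletes exon 3 of Gpr177, now named Wls. FoxN1 drives Cre in thymic epithelial cells, so the thymocytes on the arrays are the neighbours of the deleted cells and are not themselves the target. The mice were 4 to 6 weeks old, and the strain given for both genotypes is C57Bl/6N. Set beside them were 3 DP and 3 CD4 SP arrays of wild-type (wt) C57Bl/6N mice, and 3 arrays of CD8 single-positive (CD8 SP) cKO thymocytes. Whether the wt mice carried Cre or a floxed allele is unknown here, as is whether the 3 arrays of a group came from separate animals. P-values therefore measure the spread between these arrays, which may be partly technical.

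DP thymocytes carry both co-receptors, CD4 and CD8, rearrange the T cell receptor alpha locus with the RAG recombinase, and test the receptor on self peptides held by MHC molecules of the thymic cortex. Cells that receive a suitable signal are positively selected, stop recombination, take up IL-7 signals, become CD4 SP or CD8 SP, move to the medulla by CCR7 and later leave the thymus. Wls carries WNT ligands to the cell surface, so an epithelium without it cannot secrete most WNT proteins.

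Values are normalised intensities on a log2 scale, and a difference of 1 is a doubling. A gene is its brightest tested probe, and a probe was tested where it was detected (deposited detection p-value under 0.05) on at least 3 of the 18 arrays. Genes that rose or fell passed an adjusted p of 0.05 in limma over all 26676 tested probes. Errors after ± are standard errors of a difference. Median raw intensity ran from 132.6 to 230.7 on the cKO DP arrays and from 185.9 to 246.2 on the cKO CD4 SP arrays, with 20423 to 20930 and 20044 to 20687 probes detected. Replicate arrays correlated at 0.888 to 0.906 within DP and at 0.857 to 0.908 within CD4 SP, against 0.808 to 0.856 between the populations.

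The labelled populations were checked against their markers. Rag1, Dntt and Arpp21 were bright in cKO DP and low in cKO CD4 SP, and Il7r, Ccr7 and Cd40lg did the reverse. Cd4 read 8.41, 8.34 and 8.31 on the DP arrays and 8.02, 8.20 and 7.75 on the CD4 SP arrays, a difference of -0.36 ± 0.26 that missed the threshold (adjusted p = 0.623, limma). Cd8b1, the beta chain of CD8, read 11.74, 11.69 and 11.83 in DP and 8.58, 8.14 and 8.39 in CD4 SP, and fell by 3.38 on the log2 scale (adjusted p = 1.38e-06, limma). A second Cd8b1 probe fell by 4.85, but the third read higher in CD4 SP by 1.98 ± 0.41 (adjusted p = 0.00661, limma), so the probes of this gene disagree. The Cd8a probe was detected on no array of either population and says nothing of the sort. Tcf7 was not analysed here, while S1pr1, Runx3 and Gata3 were detected on too few arrays to be tested.

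Other cells were looked for with marker lists. Of 22 thymic epithelium and stroma genes on the array, 11 were detected on no cKO DP array and 12 on no cKO CD4 SP array, Foxn1, Epcam and Krt14 among them, and none of the 11 tested passed. Of the macrophage and dendritic cell list, 13 and 11 of 19 genes were undetected, Csf1r, Adgre1 and Lyz2 included, and the summed linear intensity of the list was 1094.9 to 1238.3 in DP and 1075.4 to 1200.3 in CD4 SP. Ctss, a lysosomal protease, rose by 2.25 ± 0.27 (at least 3.60-fold). B cell genes summed to 841.7 to 1157 in DP and 564 to 817 in CD4 SP. Of 13 on the array, 6 were undetected in DP and 4 in CD4 SP, while 6 and 3 were detected on all 3 arrays. Ms4a1 was undetected in both, and H2-Aa and Pax5 in DP only. Ighm, the immunoglobulin mu heavy chain, fell by 1.94 on the log2 scale. Gamma delta and double-negative thymocyte genes summed to 620.7 to 874.3 in DP and 873.2 to 1165.8 in CD4 SP. Of these, 0 of 9 tested genes passed the threshold, but all 9 differed above 0, with a median of 0.36. Kit, Spi1 and Cd163l1 were undetected in DP only, and Mef2c in CD4 SP only. Natural killer T and innate-like T cell genes summed to 720.3 to 796.6 in DP and 798.6 to 877.8 in CD4 SP, without overlap. Of that list 0 of 11 tested genes passed (1 without CD4 SP cKO replicate 2, and 1 with a trended, robust variance). Ncr1 and Il23r were undetected in both, Zbtb16 and Il18r1 in DP only, and Cxcr6 in CD4 SP only. The part of these cells in the results was not tested.

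Between cKO DP and cKO CD4 SP, 681 of 12975 genes differed, which is 5.25% of those tested. Of these, 331 genes (2.55%) rose and 350 (2.7%) fell in CD4 SP. The list counts below are to be read beside both shares. The differences were large at both ends, with 39 genes above 3 and 21 below -3 on the log2 scale, while the median over all genes was 0.04. Among the called genes, 61 that rose were detected on no cKO DP array and 47 that fell on no cKO CD4 SP array, and for these a fold is only a lower bound, written "at least". The 3 DP and the 3 CD4 SP values did not overlap for 679 of the 681, and for 20.9% of all genes. The calls rest on these same values, so the lack of overlap among called genes is no separate support. On probes the count was 1261 of 26676 (4.73%), 557 higher (2.09%) and 704 lower (2.64%). It was 807 when the 6 arrays of the comparison entered alone, 810 without the 3 cKO arrays of number 3, and up to 2055 without background correction. In bulk samples, fewer cells of a type and less RNA per cell cannot be told apart.

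The genes that fell furthest included known DP genes. Endou, an endoribonuclease, led them with 10.44, 10.32 and 10.39 on the DP arrays and 4.76, 4.54 and 4.36 on the CD4 SP arrays, where no array detected it. The fall was at least 45.1-fold (adjusted p = 4.99e-11, limma). Dntt, the terminal transferase that adds bases at receptor joins, read 9.65, 9.35 and 9.55 in DP against 4.86, 4.28 and 5.04 in CD4 SP. Rag1, a subunit of the recombinase, read 11.88, 11.71 and 11.51 against 7.39, 7.65 and 6.49, and fell by 4.52 ± 0.26. It was still detected on all 3 CD4 SP arrays. Rag2, its partner subunit, was undetected in CD4 SP and fell at least 2.65-fold. The groups of values lay well apart for each of these genes.

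Other large falls were those of Aqp11, an aquaporin, at -5.09 ± 0.30, Ppp1r1c, an inhibitor subunit of protein phosphatase 1, at -5.09 ± 0.38, and Rapgef3, the cAMP-activated exchange factor for Rap, at -4.70 ± 0.35. Of 6 further Ppp1r1c probes, 4 had the same sign. Myb, a transcription factor that DP cells need for survival, read 10.18, 9.74 and 10.11 in DP and 4.70, 6.24 and 6.13 in CD4 SP. Ly6d, a GPI-anchored surface protein, fell by 4.25 ± 0.25 (log2), Arpp21 at least 12.2-fold, Mns1 at least 11.9-fold and Papss2, an enzyme that makes the sulfate donor PAPS, at least 9.63-fold. Wdr78 read 4.76, 4.65 and 6.54 in CD4 SP, the widest spread among the leading falls, which were named only where the groups do not overlap.

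Of 25 genes of the DP stage, 21 were tested: 13 fell, none rose, and the median difference was -2.03. Beyond those named, Bcl6 fell by 2.47, Ets2 by 2.06 and Tcf12, the E protein HEB, by 1.97 on the log2 scale. Themis, a scaffold of T cell receptor signalling in DP cells, read 8.75, 8.22 and 8.66 in DP and 5.68, 5.74 and 6.10 in CD4 SP. Bcl2l1, which encodes the survival protein Bcl-xL, fell by 1.62 ± 0.30. Chip by chip, the median of the list was -2.16, -2.22 and -1.74, so the fall stood on each of the 3 BeadChips. Ccr9 at -1.09, Cd24a at -0.52 and Ptcra at -0.61 missed the threshold.

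**Figure D1:**
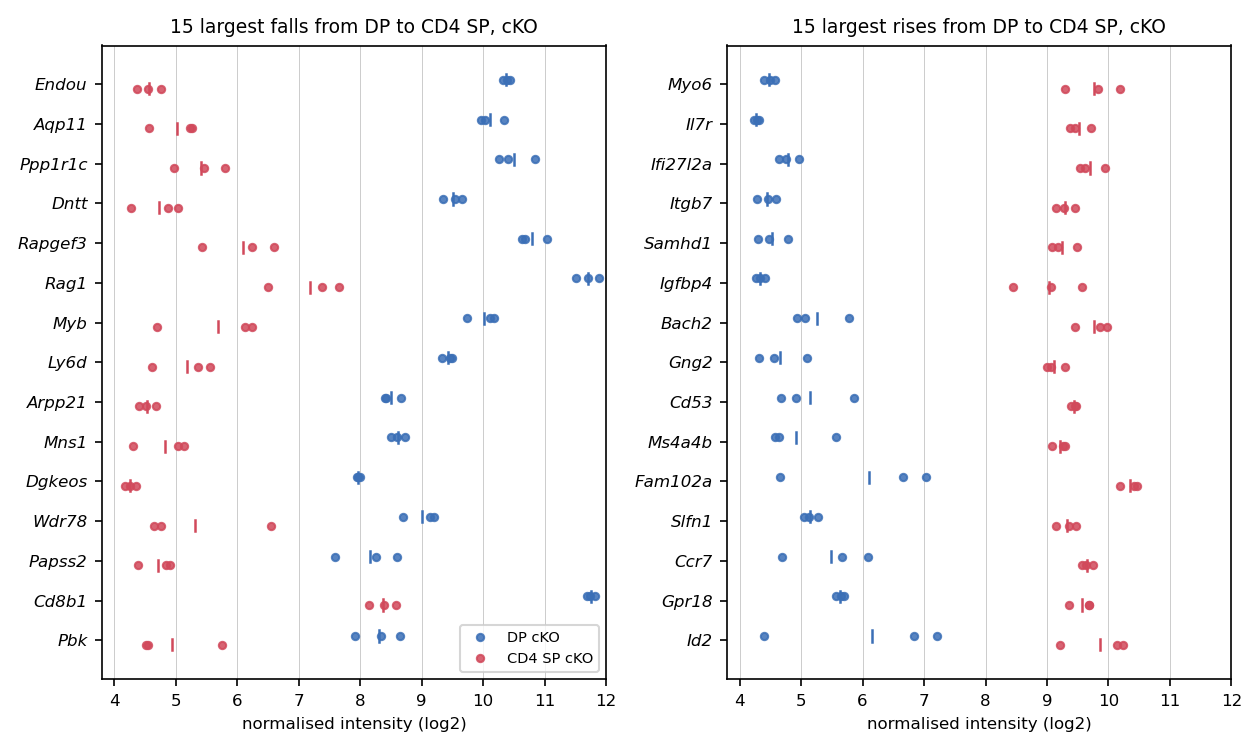
Normalised intensity (log2) of the 15 genes with the largest falls (left) and rises (right) from cKO DP to cKO CD4 SP. Points are single arrays, 3 per population, blue for DP and red for CD4 SP, and the short bars are means. Only genes whose groups do not overlap could be shown, by the rule that named them. Fam102a and Id2 have 1 DP array (4.65 and 4.39) well under the others.

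The genes that rose furthest included receptors for survival and trafficking. Il7r, the IL-7 receptor alpha chain, was detected on no cKO DP array (4.23, 4.27 and 4.32) and read 9.72, 9.46 and 9.38 in CD4 SP, a rise of at least 25.1-fold (adjusted p = 2.63e-09, limma). All 4 of its other probes had the same sign. Ccr7, the chemokine receptor that leads cells into the medulla, read 5.67, 4.69 and 6.09 in DP and 9.63, 9.57 and 9.76 in CD4 SP. Itgb7, the integrin beta 7 chain, rose at least 21.5-fold. In these receptors the CD4 SP arrays lay close together, and DP arrays were near or under detection.

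Myo6, an actin motor of the myosin family, had the largest fitted rise, from 4.48, 4.39 and 4.57 to 9.29, 10.18 and 9.82, at least 29.7-fold. Ifi27l2a, an interferon-inducible gene, rose at least 27.9-fold. Samhd1, which breaks down deoxynucleotides, rose at least 20.8-fold and Igfbp4, an insulin-like growth factor binding protein, at least 17.8-fold. The transcription factor Bach2, which restrains effector genes in T cells, rose by 4.51 ± 0.54. Id2, an inhibitor of E proteins, read 4.39, 6.84 and 7.21 in DP and 9.21, 10.24 and 10.14 in CD4 SP. For Id2, DP replicate 1 lay well under the other DP arrays. Cd53, a tetraspanin, rose by 4.29, Gng2, a G protein gamma subunit, by 4.46 and Gpr18, a G protein-coupled receptor, by 3.94 on the log2 scale.

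Genes of SP maturation and egress rose as 14 of 26 tested, of 33 listed, and the median difference was 1.40. Ms4a4b rose by 4.29, Slfn1 by 4.18, Ms4a6b by 3.45 and Cd52, a GPI-anchored surface glycoprotein, by 1.56 (log2). Foxo1, which drives Il7r and the egress programme, read 4.99, 4.52 and 4.46 in DP and 6.44, 7.25 and 7.46 in CD4 SP. Klf2, which controls S1pr1, was undetected in DP and detected on 2 of 3 CD4 SP arrays (5.30, 5.05 and 5.12). Its difference of 0.92 ± 0.29 missed the threshold (adjusted p = 0.0847, limma), but passed without background correction, with the series matrix values and without CD8 SP cKO replicate 1 (adjusted p = 0.000887, 0.000491 and 0.0435). In wt the same gene differed by 1.83 and passed, but the difference between the genotypes, -0.91 with an interval from -1.76 to -0.06, did not pass (adjusted p = 1, limma). Klf3 fell by 2.35 ± 0.40, the only member called lower.

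Of the positive selection and T cell receptor signal genes, 10 of 22 tested rose and none fell, with a median of 0.88. The count was 6, with 1 lower, without CD4 SP cKO replicate 1, 6 without the 3 cKO arrays of number 3, and 5 when the 6 arrays of the comparison entered alone. Itm2a, a membrane protein induced at positive selection, read 7.66, 6.71 and 6.74 in DP and 10.25, 10.41 and 10.20 in CD4 SP. The early response factors Egr2 and Egr3 rose by 1.62 ± 0.28 and at least 3.48-fold, and Dusp6, the ERK phosphatase, by 1.57 ± 0.22. Values of Egr3 spread from 5.80 to 7.44 in CD4 SP, with replicate 1 the lowest. Cd69, the activation marker, differed by 0.88, Nr4a3 by 1.02 and Myc by 0.15, and all missed the threshold.

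Of 21 T cell receptor complex and proximal signalling genes, 1 rose and 3 fell, and the median was 0.10. Over all genes tested 2.55% rose and 2.7% fell, a share that 1 rise among 21 does not clearly exceed. Cd3d, Cd3e and Cd3g, chains of CD3, differed by 0.20, -0.04 and 0.10, and Lat, the adaptor downstream of Zap70, by -0.11. None of these passed. The members that fell were Themis and both Src-like adaptors, which lower receptor levels: Sla had a mean of 9.81 ± 0.17 in DP and 8.37 ± 0.19 in CD4 SP (SD, n = 3) with no overlap, and Sla2 fell by 2.69 ± 0.34. Cd2, an adhesion receptor, was the member that rose, by 1.34 ± 0.27, and its call ended when the 6 arrays of the comparison entered alone (adjusted p = 0.0576, limma).

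Chemokine receptors and integrins divided. Of 20 tested, Itgb7, Ccr7 and Ccr8 rose, while Cxcr4 and Plxnd1 fell. Cxcr4, the receptor that holds DP cells in the cortex, read 9.99, 10.22 and 9.87 in DP and 8.51, 8.53 and 7.46 in CD4 SP. Plxnd1, a semaphorin receptor that takes part in the move from cortex to medulla, fell by 2.29 ± 0.33. Ccr8 was undetected in DP and rose at least 2.96-fold.

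Cytokine receptors also divided, with 6 of 26 tested genes higher and 2 lower. The lower count was 1 without any 1 of DP cKO replicates 1, 2 and 3 or CD4 SP cKO replicates 1 and 2, among other arrays. Il6ra, the IL-6 receptor alpha chain, went from no detection in DP (4.22, 4.19 and 4.22) to 7.95, 7.52 and 8.01, at least 7.74-fold. Tgfbr2, a TGF-beta receptor chain, rose by 2.07 ± 0.29. Ifngr1, the ligand-binding chain of the interferon gamma receptor, fell from a mean of 9.98 ± 0.08 to 6.95 ± 0.36 (SD, n = 3), with no overlap. Its partner Ifngr2 differed by -0.09 and missed the threshold.

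Lineage genes gave a mixed picture. Of 15 tested CD4 and helper genes, 4 rose and 2 fell, and 1 fell without any 1 of the 6 arrays compared. Cd40lg, the CD40 ligand of helper cells, was undetected in DP and read 6.32, 6.21 and 6.40 in CD4 SP, at least 2.71-fold higher. Tnfrsf4, the co-stimulatory receptor OX40, rose at least 5.48-fold and Icos by 1.62 ± 0.26. Slamf6 fell by 2.58 ± 0.39, though its other probe had the opposite sign. Zbtb7b, which encodes the CD4 lineage factor ThPOK, read 6.71, 6.68 and 6.25 in DP and 7.30, 6.38 and 5.63 in CD4 SP. Its values overlapped, the difference was -0.11 ± 0.53 (adjusted p = 0.972, limma), and the sign turned without CD4 SP cKO replicate 3, at 0.30.

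Among 22 lineage transcription factors 4 rose and 5 fell, and 2 fell without the 3 cKO arrays of number 3. Lef1, a factor of the TCF family that also answers WNT signals, read 9.22, 9.32 and 9.06 in DP and 10.77, 10.57 and 10.54 in CD4 SP. Its 3 other probes had the same sign but unlike sizes, at 1.32, 0.75 and 0.22. Only the first of them passed (adjusted p = 0.00243, 0.056 and 0.801, limma). Patz1, a zinc finger protein, was undetected in CD4 SP and fell at least 6.49-fold. Of 15 CD8 and cytotoxic genes, Cd8b1 fell and Xcl1, a chemokine, rose at least 2.37-fold, a call that ended without the 3 cKO arrays of number 3. As 2.55% of all genes rose and 2.7% fell, 1 call each way in 15 does not clearly exceed those shares. Of 13 regulatory T cell genes 3 rose, Tnfrsf4 and Ccr8 among them. Foxp3, the factor that defines these cells, read 7.47, 7.67 and 7.51 in DP and 8.13, 8.26 and 7.66 in CD4 SP. The difference of 0.46 ± 0.25 missed the threshold (adjusted p = 0.441, limma), and the same probe had a mean of 8.07 in cKO CD8 SP. A second Foxp3 probe was detected on all 3 cKO CD4 SP arrays and on no cKO DP or cKO CD8 SP array. It differed from DP by 0.82 ± 0.34 and also missed the threshold (adjusted p = 0.247, limma).

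Survival genes changed in both directions. Bcl2, the survival protein of mature thymocytes, rose from 8.07, 7.99 and 8.05 to 9.82, 9.39 and 9.42, and a second probe by 3.91. Its remaining probes, near detection, differed by 0.42 and 0.41 and missed the threshold. Bcl2a1d, of the A1 family whose copies are near identical, read 5.79, 6.10 and 6.40 in DP and 9.12, 9.37 and 9.11 in CD4 SP. Against these, Bcl2l1 fell, as given above, and Fas, the death receptor, was undetected in CD4 SP and fell at least 4.88-fold. Of 21 family and p53 genes 4 rose and 3 fell, and 2 rose without CD4 SP cKO replicate 2 or without the 3 cKO arrays of number 3. Mcl1 at 0.07 and Bcl2l11, which encodes Bim, at 0.53 missed the threshold.

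WNT genes were of interest because the epithelium lacks Wls. Of 33 tested ligands, receptors and targets, of 47 listed, Lef1, Tle4 and Axin2 rose and none fell (1 fell without CD4 SP cKO replicate 3), and the median was 0.11. Over all genes tested 2.55% rose and 2.7% fell, with a median of 0.04. Tle4, a co-repressor bound by TCF factors, read 7.93, 6.98 and 8.42 in DP and 9.43, 9.34 and 9.65 in CD4 SP. Axin2, a feedback target of beta-catenin, read 6.06, 4.75 and 4.77 against 6.98, 6.19 and 7.22. The values did not overlap, but the call was at the edge (adjusted p = 0.0494, limma) and ended in 12 of 18 fits that left out 1 array, for example at an adjusted p of 0.195 without DP cKO replicate 3. Wls in the thymocytes read 6.46, 7.12 and 6.83 in DP and 6.59, 6.96 and 6.19 in CD4 SP, with overlapping groups and a difference of -0.22 ± 0.31 (adjusted p = 0.859, limma). A second Wls probe, detected on all 3 arrays of both groups, differed by -0.83 ± 0.27 without overlap and missed the threshold (adjusted p = 0.11, limma). In wt that probe differed by -0.74. The remaining tested Wls probe differed by -0.12 in cKO.

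**Figure D2:**
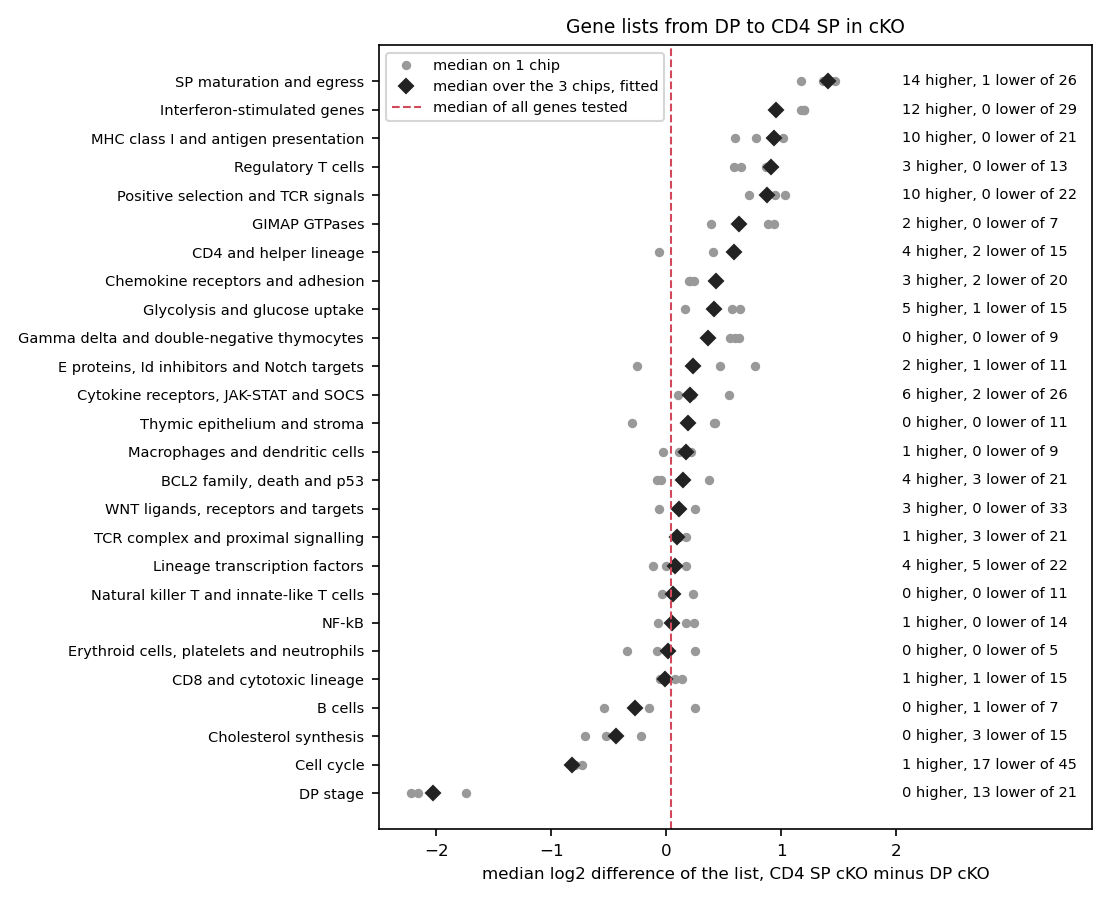
Median log2 difference, cKO CD4 SP minus cKO DP, of the tested genes of each list. Diamonds are the fitted medians, grey points the medians on each of the 3 chips, the dashed line the median of all genes (0.04), and the text gives the genes called in each direction. DP stage genes and cell cycle genes lie lowest (-2.03 and -0.82), and SP maturation genes highest (1.40).

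Interferon-stimulated genes (12 of 29 tested) and MHC class I genes (10 of 21) were also among those that rose. Promoter stretches of 5 members are shown because many interferon-stimulated genes are driven through a shared element, searched here as its core GAAANNGAAA on either strand (TTTCNNTTTC on the other). Only promoters with a match before the start were shown, so the 5 hold the core by choice. They are RefSeq sequence of build GRCm38.p6, written 5′ to 3′ on the strand of the gene, with each match in capitals. Overlapping matches run together.
Ifit3 at chr19:34583360-34583429, plus strand: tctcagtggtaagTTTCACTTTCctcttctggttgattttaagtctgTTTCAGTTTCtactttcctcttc
Isg15 at chr4:156200851-156200920, minus strand: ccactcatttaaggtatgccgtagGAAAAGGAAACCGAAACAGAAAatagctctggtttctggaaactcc
Rsad2 at chr12:26456533-26456602, minus strand: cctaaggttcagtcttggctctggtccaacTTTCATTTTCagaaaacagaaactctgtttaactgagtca
B2m at chr2:122147518-122147587, plus strand: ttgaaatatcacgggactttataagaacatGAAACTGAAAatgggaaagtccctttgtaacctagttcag
H2-T23 at chr17:36032786-36032855, minus strand: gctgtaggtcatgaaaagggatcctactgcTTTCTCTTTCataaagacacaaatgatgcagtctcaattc
The core stood in 1131 of 32851 RefSeq promoters (3.44%), each window running from 250 bases before to 50 after the start, and in 3.62% of those of tested genes. It stood in 5 of 10 interferon-stimulated genes that rose and have a promoter in the table, and in 6 of 9 that were not called. For MHC class I and presentation genes it stood in 3 of 7 that rose and 0 of 7 that were not called. A match is a run of letters and not a shown binding site.

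Of 29 tested interferon-stimulated genes 12 rose and none fell, with a median of 0.95. Under several alternatives 1 fell, among them no background correction, the series matrix values, no filter, a stricter filter and a trended, robust variance. Rsad2, the antiviral protein viperin, was undetected in DP and read 7.36, 7.10 and 7.67 in CD4 SP, at least 5.67-fold higher (adjusted p = 1.69e-05, limma). Isg15, a ubiquitin-like modifier, read 6.78, 7.17 and 6.57 in DP and 9.03, 8.56 and 8.63 in CD4 SP. Ifit3, an antiviral protein that binds other IFIT proteins, read 6.72, 4.61 and 4.65 against 8.59, 8.12 and 8.48, so DP replicate 1 stood above the other two. Ddx58, the RNA sensor RIG-I, rose at least 5.26-fold and Irf9, a subunit of the complex that binds the element above, by 3.13, though the call of Irf9 ended without the 3 cKO arrays of number 3. Stat2, another subunit of that complex, differed by -0.59, Mx1 by 0.48 and Ifit2 by 0.68, and none passed.

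For MHC class I and antigen presentation, 10 of 21 tested genes rose and none fell, with a median of 0.93. H2-K1, a classical class I heavy chain, rose from 5.66, 5.49 and 5.72 to 8.65, 8.26 and 8.48. B2m, the light chain, rose from 10.03, 9.96 and 9.84 to 11.20, 11.20 and 11.08. Nlrc5, the transactivator of class I genes, was undetected in DP and rose at least 5.75-fold. The immunoproteasome subunit Psmb9 rose by 1.00 (log2), a call that ended when the 6 arrays of the comparison entered alone or the 3 cKO arrays of number 3 were left out, while Psmb8 at 0.38 and the peptide transporters Tap1 and Tap2 at 0.31 and 0.27 missed the threshold. Class I heavy chains are near-identical copies, so single H2-Q and H2-T probes may read more than 1 gene.

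Cell cycle genes were lower in CD4 SP, with 17 of 45 tested genes lower, 1 higher and a median of -0.82. Mki67, a marker of cycling cells, read 9.76, 10.10 and 10.32 in DP and 7.38, 6.96 and 7.98 in CD4 SP. The mitotic kinases Plk1 and Aurka fell by 2.70 ± 0.25 and 3.22 ± 0.46, and Birc5, the mitotic protein survivin, fell by 2.83 ± 0.29. Uhrf1, which keeps DNA methylation through replication, fell by 2.14 ± 0.27. Among genes of DNA synthesis, Rrm2, a subunit of ribonucleotide reductase, fell by 1.47 on the log2 scale, while Pcna at -0.45 and Mcm7 at -0.48 missed the threshold. Ccnd2, a D-type cyclin, was the member that rose, from 5.92, 6.20 and 6.14 to 9.48, 9.30 and 9.56, whereas Ccnd3 fell by 1.26.

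**Figure D3:**
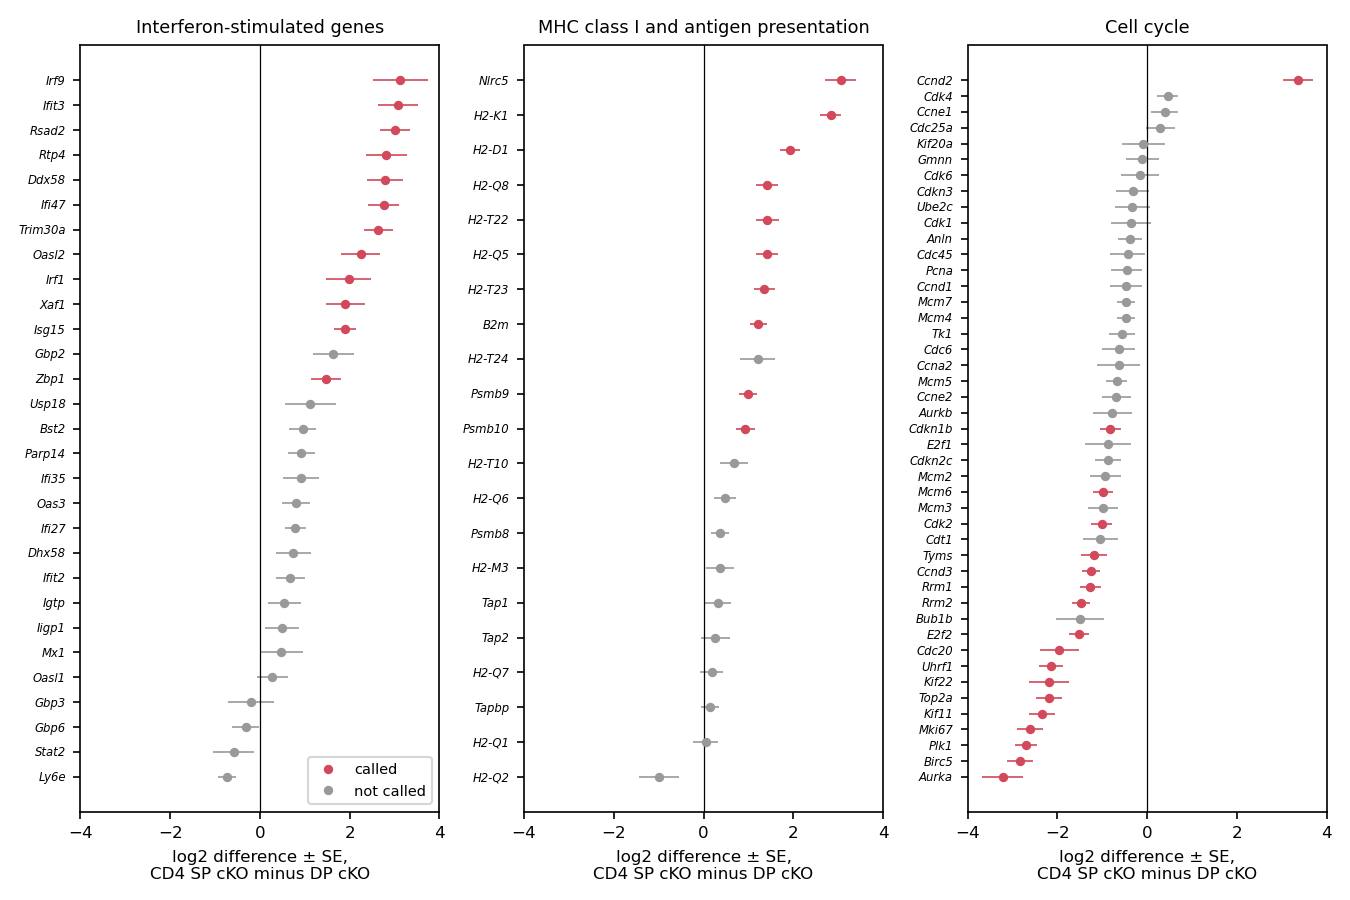
Log2 difference, cKO CD4 SP minus cKO DP, with its standard error for every tested gene of 3 lists. Red points passed an adjusted p of 0.05 in limma and grey points did not. Red points lie right of 0 in both left panels (12 of 29 and 10 of 21) and, except for Ccnd2, left of 0 among cell cycle genes (17 of 45).

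Metabolic genes were less settled. Of 15 glycolysis and glucose uptake genes 5 rose and 1 fell, but only 3 rose without DP cKO replicate 3, CD4 SP cKO replicate 1 or CD4 SP cKO replicate 3, and none when the 6 arrays entered alone. The 1 fall, of the lactate transporter Slc16a1, was lost without DP cKO replicate 1 or 2 or any 1 CD4 SP cKO replicate. Pkm, pyruvate kinase, read 8.82, 9.36 and 8.76 in DP and 10.01, 10.18 and 9.99 in CD4 SP. Of 15 cholesterol synthesis genes 3 fell and none rose. Only 1 fell when the 6 arrays entered alone, and 5 fell without background correction or with a trended, robust variance. Sqle, squalene epoxidase, read 6.50, 6.56 and 6.44 in DP and 5.19, 4.90 and 5.42 in CD4 SP. Of 7 GIMAP GTPases, small GTPases of lymphocytes, 2 rose. The count was 1 when the 6 arrays entered alone or without the 3 cKO arrays of number 3. Gimap7 read 8.15, 6.59 and 8.23 in CD4 SP, with replicate 2 lowest, and lay above all DP values.

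The same step in wt mice was set beside the cKO step, on other arrays. In wt, 822 of 12975 genes (6.34%) differed between DP and CD4 SP, 427 higher (3.29%) and 395 lower (3.04%). On probes the count was 1608 (6.03%), 730 higher (2.74%) and 878 lower (3.29%). Called in both genotypes were 513 genes, all in the same direction, which is 75.3% of the cKO calls and 62.4% of the wt calls. Of the 681 genes called in cKO, 671 had the same sign in wt. Over all genes the 2 sets of differences correlated at a Pearson r of 0.686 and a Spearman rho of 0.47, across genes, which are not independent and share chips and normalisation. Genes called in cKO had a median absolute log2 difference of 1.64 in cKO. In wt their median was 1.5, counted as positive where the direction was that of cKO. Genes called in wt had 1.55 in wt and, counted by the wt direction, 1.27 in cKO. Each set was chosen by its difference in the calling genotype, which favours larger values there. These medians therefore do not compare the genotypes.

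The difference of the steps was tested directly. No probe of 26676 passed (0%), with a lowest adjusted p of 0.99 in limma, and 1018 had an unadjusted p under 0.05, fewer than the 1333.8 that chance gives. The count was 1588, above that number, with background level as a covariate, and there too no probe passed. With 1 wt array left out (CD4 SP wt replicate 3) 1 probe passed, of Rgs1, at -2.14 (adjusted p = 0.0408, limma). A missed threshold does not show that the steps were equal. The 95% interval of a difference had a median half-width of 1.08, and it lay within 1 of 0 on both sides for 210 of the 681 called genes.

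Itgae, the integrin alpha E chain CD103, had the smallest p of the difference. In cKO its brightest probe was undetected in both populations, while 3 other probes were detected on 2 or 3 arrays of each. It read 4.77, 4.41 and 4.60 in DP and 5.27, 4.89 and 4.93 in CD4 SP. In wt it read 4.27, 4.43 and 4.45 in DP and 6.43, 6.91 and 6.91 in CD4 SP, at least 3.76-fold higher. The wt CD4 SP arrays thus lay above all 3 cKO CD4 SP arrays, but the step differed by -1.94, with an interval from -2.68 to -1.19, and missed the threshold after adjustment (adjusted p = 0.99, limma). Its 5 other probes also differed below 0, by -1.08 to -0.00. The next in that direction were Ubxn11 at -1.74, Aqp7 at -1.72, Fbh1 at -1.71 and Lcn3 at -1.59, and in the other Cenpb at 2.73, Akr1b10 at 1.79, Anapc2 at 1.70, Myo1g at 1.56 and Zfyve19 at 1.40. All missed the threshold.

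**Figure D4:**
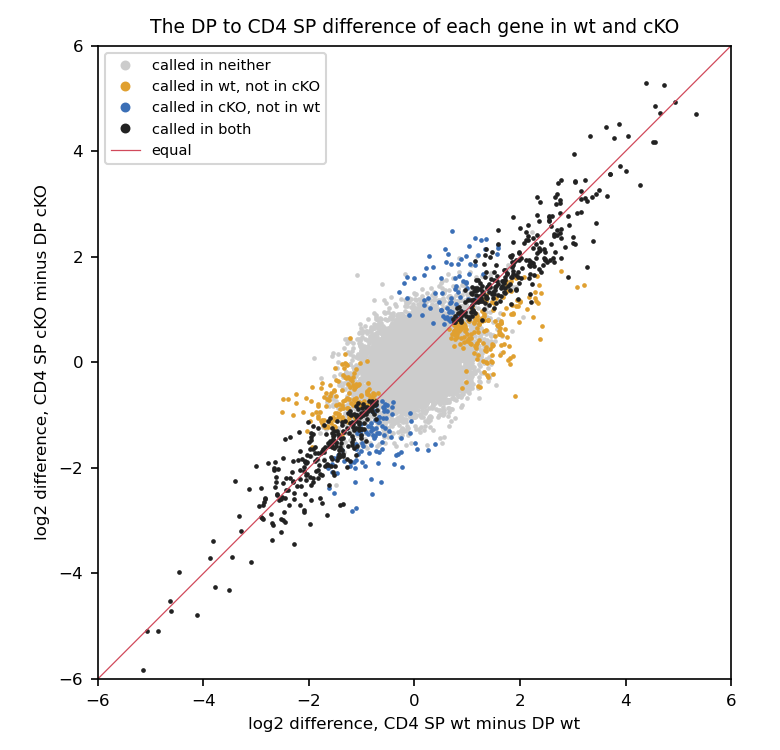
Log2 difference between CD4 SP and DP for each of 12975 genes, in wt (horizontal axis) and in cKO (vertical axis). Black points were called in both genotypes (513), blue in cKO and not in wt, yellow in wt and not in cKO, grey in neither, and the line marks equal differences. The black points run along the line in both corners.

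The cKO CD4 SP arrays were also compared with the 3 cKO CD8 SP arrays, to see which changes part the 2 SP populations. Of 12975 genes 544 (4.19%) differed, 203 higher (1.56%) and 341 lower (2.63%) in CD4 SP. On probes the count was 1047 (3.92%), 477 higher (1.79%) and 570 lower (2.14%), and it was 625 without CD4 SP cKO replicate 1, 615 without CD8 SP cKO replicate 2 and 289 when the 6 arrays entered alone. This comparison shares the CD4 SP arrays with the one above, so values are only set side by side.

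Among genes called from DP to CD4 SP, Myo6 stood furthest above CD8 SP, where it was undetected (4.67, 4.28 and 4.69), at least 28.6-fold. Il21, a cytokine of helper cells, read 8.00, 8.27 and 7.84 in CD4 SP and was undetected in both DP and CD8 SP, at least 8.97-fold higher than in DP and at least 8.64-fold higher than in CD8 SP. Itm2a was 4.03 higher than in CD8 SP on the log2 scale, Ckb, a creatine kinase, 3.92 higher, and Ptgir, the prostacyclin receptor, at least 7.83-fold higher. Rbms2 was at least 7.64-fold higher than in CD8 SP, but its rise from DP, 1.86, ended without any 1 of 4 arrays (1.70 without DP cKO replicate 1, 1.81 without DP cKO replicate 2, 1.62 and 1.76 without CD4 SP cKO replicates 2 and 3). By contrast Itgb7 differed by 0.12 and Ccr7 by 0.81 between the SP populations and missed the threshold there.

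Genes below CD8 SP included DP and cell cycle genes. Endou read 9.29, 8.94 and 9.12 in CD8 SP, at least 18.8-fold above CD4 SP, and Dntt 8.69, 8.69 and 8.80. Rag1 read 10.05, 9.82 and 10.03 in CD8 SP, between the DP and the CD4 SP arrays. Aurka, Pbk and the checkpoint and fork genes Chek1 and Tipin were also lower in CD4 SP than in CD8 SP, Chek1 at least 12.4-fold and Tipin at least 11.7-fold. The fall of Chek1 from DP, -2.07, ended without any 1 of 4 arrays (-1.97 and -1.81 without DP cKO replicates 1 and 3, -1.96 and -2.03 without CD4 SP cKO replicates 1 and 3). Over 45 cell cycle genes, 25 were lower in CD4 SP than in CD8 SP and none higher. Why CD8 SP arrays carry DP and cycling genes was not tested.

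**Figure D5:**
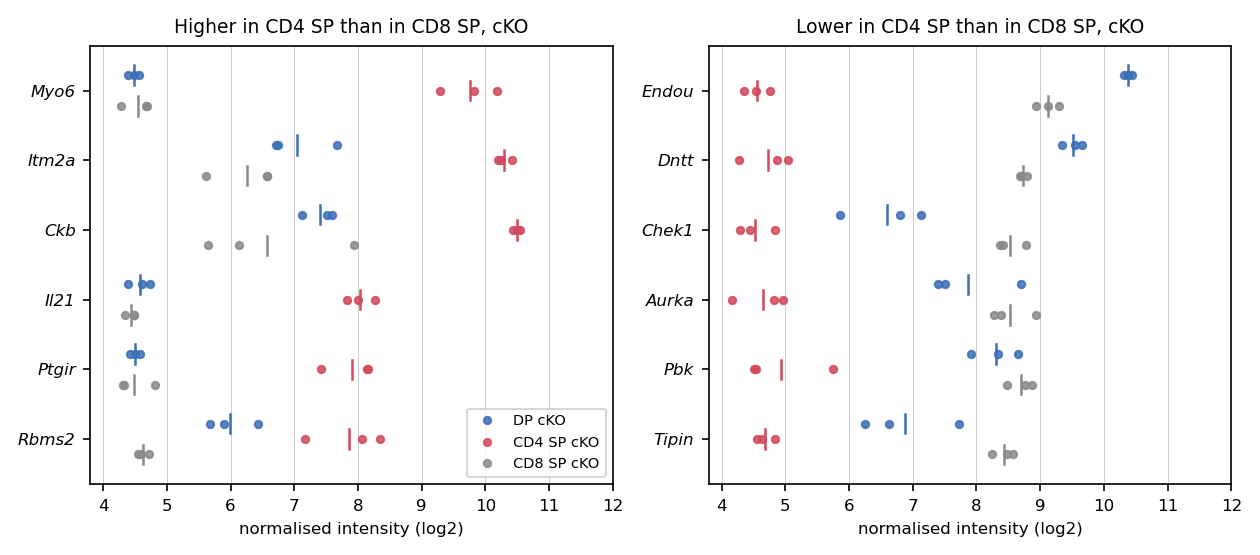
Normalised intensity (log2) in cKO DP (blue), CD4 SP (red) and CD8 SP (grey) of the 6 genes furthest above (left) and below (right) CD8 SP among those called from DP to CD4 SP. Points are single arrays, 3 per population, and bars are means. Myo6, Il21 and Ptgir are low in both DP and CD8 SP, and Endou and Dntt are high in both.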

How the data were processed

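RNA of 18 samples, 3 for each of 6 groups, was measured on Illumina mouse BeadChips from 200 ng of RNA, per the labels' protocols. The authors deposited a mean bead intensity per probe and array, without background subtraction, and a detection p-value beside it, per the file headers. How the detection p-value was computed, and the scanner software, are not given in the sources used here. The series matrix, an intensity the authors normalised between arrays, was an alternative only.

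Background correction from the detection p-values, quantile normalisation and the log2 transform were done by neqc (offset 16) of limma 3.58.1, run in R 4.3.3. Figures used matplotlib 3.10.9. Of 46237 probes, 26676 were tested. The annotation, updated through RefSeq, gave 1 symbol to 35784 probes and none to 10453. One linear model with 6 group means left 12 residual degrees of freedom, and the Benjamini-Hochberg adjustment ran over every tested probe. A bound is the fold between the bright mean and the dim group raised to the lowest detected value of each array.

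Groups and lists (26 lists, 583 genes, 422 tested) were chosen with earlier results of these data known. Genes were named by rule: the 15 largest rises and falls with groups that do not overlap, up to 6 called members per list with the smallest p, a set of stage and lineage genes whatever their values, the genes with the smallest p for the difference of the steps, and the 6 largest in each direction against CD8 SP. List members outside the rule (such as Bcl6, Ets2, Klf3, Ms4a6b, Cd52, Irf9, Psmb9, Rrm2 and Ccnd3, and the members said to miss the threshold) were chosen after their values were seen. Of 107 named genes past the threshold, 13 lost the call when 1 array was left out, and most of these are only counted with their list.

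Per the file headers, label numbers 1 to 3 stand for 3 BeadChips that each hold all 6 groups, so the numbers pair arrays by chip. Residuals of same-numbered cKO DP and CD4 SP arrays correlated at 0.0446, 0.19 and 0.229. The array number limits the precision. Alternatives covered normalisation, filter, variance model, chip and left-out arrays.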

Additional observations from a re-analysis of the deposited data

How the results depend on the processing

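The cKO comparison called 1261 probes, and none of its 681 called genes changed sign under any alternative. Without background correction the counts were 2055 probes (952 higher, 1103 lower; genes 603 and 567) and 1890 against CD8 SP. With the series matrix they were 2021 (904 and 1117; genes 566 and 573) and 1773. With a trended, robust variance they were 1958 (914 higher; genes 580 and 537) and 1835. With normexp and median scaling, 467 probes and 226 genes were lower. With only the groups compared they were 807 (362 and 445; 214 genes lower), 1028 in wt and 289 against CD8 SP, and 411 of the 681 genes were still called. Without the 3 cKO arrays of number 3, chosen after seeing the data, they were 810 (338 higher; 207 genes higher) and 484, and 401 of the 681 were still called. Leaving out 1 array gave 920 to 1295 probes (414 to 562 higher, 498 to 733 lower), 244 to 329 genes higher and 246 to 359 lower, 104 to 123 list genes against 125, 1197 to 1661 in wt, 615 to 1002 against CD8 SP and 0 to 1 for the difference of the steps. The label number as a replicate block, the pairing by chip, gave 1284, 1666 in wt, 1078 against CD8 SP and 0 for the difference, and changed no named call. The sign turned for Cd8a (0.02 with background level as a covariate) and Zbtb7b (0.002 with normexp and median scaling, -0.541 to 0.297 with 1 array left out, 0.149 without the 3 cKO arrays of number 3), neither of them called. The cause of these changes was not tested. Of 107 named calls, 84 held under all 29 alternatives. Genes near detection give bounds, and 3 arrays a group limit the interval of the difference between the steps.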
